A study of Arabidopsis thaliana with 24 samples.

Results

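The genes described here were higher in roots of an amiR-TOR line than in roots of the wild type Col-0 in each of the 4 conditions of the study. They were found by rule: the level of a gene was taken as log2(CPM + 1), where CPM is its count scaled to a common total of 1000000 gene counts per library, and the mean of the 3 Col-0 libraries was subtracted from the mean of the 3 amiR-TOR libraries within each condition. The lowest of the 4 differences is the score of the gene, and the 100 genes with the highest scores of 32833 counted loci were taken. Because these differences chose the genes, every amiR-TOR to Col-0 difference of a chosen gene is given below as a description, without a test. Changes between conditions, averaged over the genotypes, were not used as such by the rule and were tested, though in the same libraries.

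The study asked how roots respond at the level of RNA when lateral roots are induced, in the wild type and with TOR knocked down. RNA was sequenced from 24 pools of about 200 segments from the lower part of roots of Arabidopsis thaliana seedlings, which were 7 d old when first transferred, as 8 groups of 3. The line amiR-TOR (labelled UB10pro>>amiR-TOR) carries an artificial microRNA against TOR that estradiol induces, and Col-0 carries none; the labels name a single line and do not say whether the pools came from separate cultures, so p-values measure only the spread between these pools. Every seedling was first kept for 24 h on 10 µM NPA, an inhibitor of auxin transport that holds back lateral roots. In the group called NPA_Es the next 24 h were on NPA with 10 µM estradiol, and in the group called NPA on NPA with the solvent DMSO. In the groups IAA_Es and IAA the seedlings then moved to 10 µM of the auxin IAA for the last 6 h, with estradiol or with solvent, while the NPA_Es and NPA seedlings stayed on their plates.

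TOR is a protein kinase that promotes growth when nutrients and energy are at hand. Plant roots that perceive microbes or damage switch on a set of defence genes: WRKY transcription factors bind W-box motifs, P450 enzymes turn tryptophan into indole compounds such as camalexin, and secreted peroxidases, chitinases and extensins act in the wall. Many of these genes stand side by side in the genome as tandem copies.

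TOR itself had 27.0 ± 5.94 CPM in amiR-TOR on NPA_Es, against 73.1 ± 5.64 CPM in Col-0 on NPA_Es (SD, n = 3 each; adjusted p = 7.15e-07, edgeR). On IAA_Es it had 26.2 ± 1.85 CPM in amiR-TOR, against 68.6 ± 7.94 CPM in Col-0 (adjusted p = 6.98e-07, edgeR). Without estradiol it had 58.1 ± 6.20 CPM in amiR-TOR on NPA, against 64.3 ± 14.6 CPM in Col-0 on NPA (adjusted p = 0.404, edgeR), and 62.8 ± 7.88 CPM in amiR-TOR on IAA, against 56.2 ± 9.66 CPM in Col-0 on IAA (adjusted p = 0.559, edgeR). TOR was thus called lower in the line in both conditions with estradiol and in neither condition without it, while the rule requires the 100 genes to be higher without estradiol too. Whether the differences without estradiol come from the construct, from the place of its insertion or from other differences between the seed stocks cannot be told apart.

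Gene counts per library lay between 8589833 and 40494513. In 19 libraries between 1.56% and 12.05% of the reads were unmapped, and in the other 5 between 25.8% and 47.6%: replicates 2 and 3 of Col-0 on IAA_Es, replicate 1 of Col-0 on NPA, replicate 1 of Col-0 on IAA and replicate 1 of amiR-TOR on IAA_Es. The leading results below are given with and without these 5 libraries, for comparisons with IAA_Es as the changes of named genes. Leaving them out keeps only replicate 1 of Col-0 on IAA_Es, so a call lost there cannot be told apart from lost replication. Of fixed markers of root hairs, endodermis, phloem, xylem and root cap, none was at 0 in all libraries; the summed level of 8 markers of photosynthetic shoot tissue lay between 32.0 and 225 CPM in amiR-TOR and between 42.8 and 305 CPM in Col-0. All 100 genes passed the filter on low counts, which 21290 loci passed, and 99 of them code for proteins.

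To show what stands in front of these genes, the 250 bases upstream of the annotated start were searched for the W-box, TTGACC or TTGACT on either strand; no other motif was searched. Of the 100 genes 66 (66.0%) had a match, against 28.8% of the 21205 tested genes with an annotated start. At least 2 matches were found for 25 of the 100 (25.0%), against 6.15% of those tested genes. Of the tested genes ranked 101 to 200 by the same score, 53.0% had a match, of those ranked 501 to 600, 45.0%, and of the 100 genes that were lowest in amiR-TOR in all conditions, 24.2% of the 99 with a sequence. Among the genes with complete annotated models the shares were 70.2% of 84 for the chosen genes and 28.6% of 18814 for all tested genes. A match is a run of letters and does not show binding, and no test was made of these shares.

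**Figure D1:**
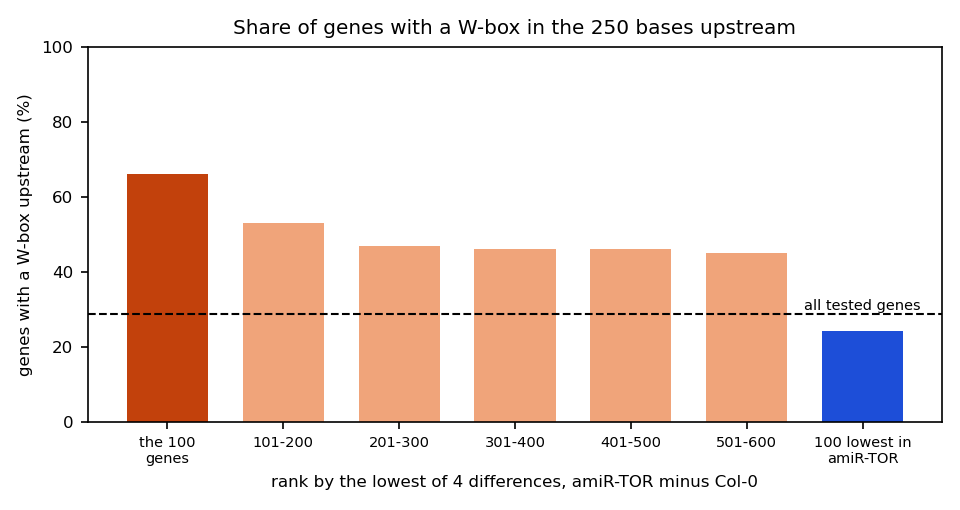
Share of genes with at least 1 W-box in the 250 bases upstream (y axis, percent), by rank of the lowest of the 4 differences (x axis). The bar of the 100 genes stands at 66.0%, the 5 following bins of 100 between 45.0% and 53.0%, the 100 genes lowest in amiR-TOR at 24.2%, and the dashed line marks all tested genes at 28.8%.

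The upstream sequences of 6 genes, 3 of indole metabolism (CYP82C2, FOX1 and PAD3), 2 of WRKY factors and the peptide gene PROPEP3, are printed because their values are given below and because they span the range of W-box counts among the chosen genes, with 4 matches for PROPEP3, 3 for CYP82C2 and WRKY30, 2 for FOX1 and WRKY33, and 0 for PAD3. They come from the RefSeq genome of assembly TAIR10.1, run 5′ to 3′ on the strand of the gene and end at the base before its annotated start; capitals mark the W-boxes. PROPEP3 stands at chr5:25939312-25939561 (plus strand), CYP82C2 at chr4:15462100-15462349 (plus), WRKY30 at chr5:8154711-8154960 (minus), FOX1 at chr1:9128569-9128818 (minus), WRKY33 at chr2:16107985-16108234 (plus) and PAD3 at chr3:9887667-9887916 (plus).
PROPEP3: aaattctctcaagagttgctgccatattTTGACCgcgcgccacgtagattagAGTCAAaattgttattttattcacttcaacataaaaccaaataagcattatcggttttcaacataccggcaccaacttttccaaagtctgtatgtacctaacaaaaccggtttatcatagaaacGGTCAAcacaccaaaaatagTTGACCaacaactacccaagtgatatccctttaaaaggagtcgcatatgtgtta
CYP82C2: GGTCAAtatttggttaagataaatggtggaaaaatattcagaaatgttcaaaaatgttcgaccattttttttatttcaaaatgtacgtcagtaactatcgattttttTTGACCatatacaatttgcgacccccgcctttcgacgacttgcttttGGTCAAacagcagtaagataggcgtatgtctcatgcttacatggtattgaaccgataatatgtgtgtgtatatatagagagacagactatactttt
WRKY30: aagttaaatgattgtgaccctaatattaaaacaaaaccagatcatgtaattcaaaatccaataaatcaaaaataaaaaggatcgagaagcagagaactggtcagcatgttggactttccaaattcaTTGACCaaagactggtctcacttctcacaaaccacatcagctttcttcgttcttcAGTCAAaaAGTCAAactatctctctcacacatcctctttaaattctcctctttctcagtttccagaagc
FOX1: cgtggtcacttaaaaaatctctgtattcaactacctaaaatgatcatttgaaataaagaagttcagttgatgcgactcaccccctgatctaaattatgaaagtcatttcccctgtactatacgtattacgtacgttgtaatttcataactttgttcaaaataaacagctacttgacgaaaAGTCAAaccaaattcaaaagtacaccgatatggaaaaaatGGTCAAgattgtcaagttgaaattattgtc
WRKY33: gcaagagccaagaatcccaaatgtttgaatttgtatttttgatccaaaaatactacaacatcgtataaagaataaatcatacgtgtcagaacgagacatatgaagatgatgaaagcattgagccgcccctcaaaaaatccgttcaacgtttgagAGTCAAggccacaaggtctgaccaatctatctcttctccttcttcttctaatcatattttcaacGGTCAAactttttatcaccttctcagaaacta
PAD3: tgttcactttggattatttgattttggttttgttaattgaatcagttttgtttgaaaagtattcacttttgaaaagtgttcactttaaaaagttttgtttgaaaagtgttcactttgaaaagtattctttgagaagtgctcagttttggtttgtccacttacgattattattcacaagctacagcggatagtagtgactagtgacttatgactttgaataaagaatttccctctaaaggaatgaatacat

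The scores of the 100 genes ran from 1.22 to 4.08 with a median of 1.59 on the log2(CPM + 1) scale, which understates differences of genes near 0. The genes just inside the limit were HRGP1, AT1G08763 and AT1G26420, each with a score of 1.22, and those just outside were AT2G39400 with 1.22, EXT13 with 1.21 and LOX4 with 1.21. The limit of 100 therefore falls within a run of closely spaced scores. The rule applied without the 5 libraries of high unmapped share chose 67 of the 100 again. In all, 173 loci had a score of at least 1, whereas 4 loci were lower in amiR-TOR by at least 1 in all 4 conditions.

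The median difference of the 100 genes, amiR-TOR minus Col-0, was 2.17 on NPA, 2.37 on NPA_Es, 2.06 on IAA and 1.76 on IAA_Es, whereas the median over all tested loci was 0.02, -0.01, 0.00 and 0.01 in the same order of conditions. All 3 amiR-TOR libraries lay above all 3 Col-0 libraries for 100 of the genes on NPA, NPA_Es and IAA and for 83 on IAA_Es. Over all tested loci that share was 20.6%, 22.8%, 16.4% and 23.8%. The rule used these values, so the counts support nothing further. On IAA_Es stood the lowest of the 4 differences for 59 of the genes.

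The summed level of the 100 genes lay between 4132 and 16040 CPM in the 12 amiR-TOR libraries (median 10455), and between 849 and 4268 CPM in the 12 Col-0 libraries (median 1204). The lowest amiR-TOR sums, 4132 and 4918 CPM, were those of IAA replicates 1 and 3, whereas replicate 2 of that group, the library with the fewest gene counts, had 11364 CPM. The highest Col-0 sums, 4268 and 3822 CPM, were those of IAA_Es replicates 2 and 3, whereas replicate 1 of that group had 1153 CPM. Of their reads 35.2% and 31.7% were unmapped, against 1.56% in replicate 1; the other Col-0 libraries with many unmapped reads had sums of 1014 CPM (NPA replicate 1) and 849 CPM (IAA replicate 1). The part of unmapped reads in this was not tested.

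**Figure D2:**
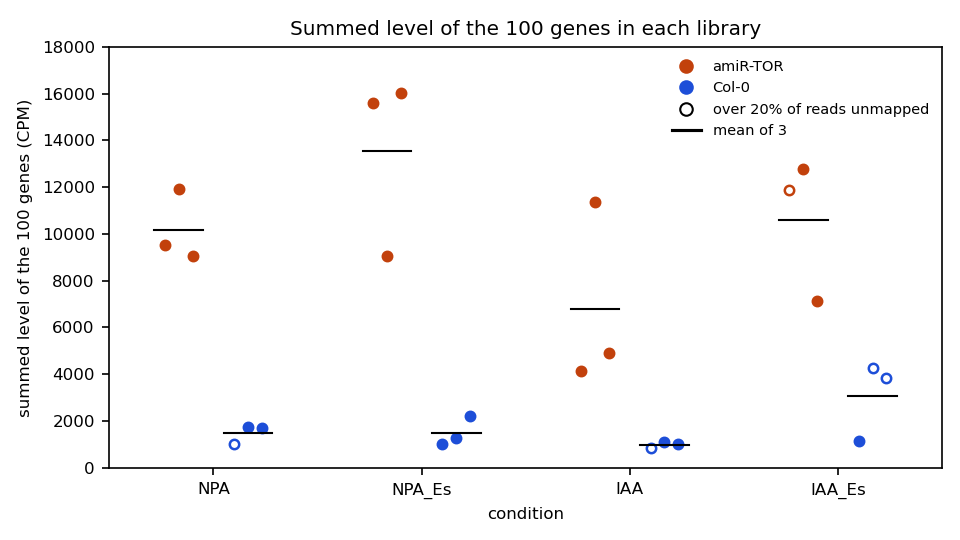
Summed level of the 100 genes in CPM (y axis) in each of the 24 libraries by condition (x axis), amiR-TOR left and Col-0 right; bars are means of 3 and open symbols mark libraries with over 20% of reads unmapped. The 12 amiR-TOR sums lie between 4132 and 16040 CPM and 10 of the Col-0 sums between 849 and 2207 CPM, with Col-0 IAA_Es replicates 2 and 3 at 4268 and 3822 CPM.

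Each of the 12 amiR-TOR libraries lay above each of the 12 Col-0 libraries for 39 of the genes, against 0.939% of all tested loci. Without replicates 2 and 3 of Col-0 on IAA_Es that count was 72, against 1.69% of all tested loci. Of the 100 genes, 43 had their highest Col-0 level in replicate 2 of Col-0 on IAA_Es and 22 in replicate 3. Another 15 had it in replicate 3 of Col-0 on NPA_Es, a library with only 3.58% of reads unmapped. The summed level of the 100 genes in that library was 2207 CPM, against 1026 and 1255 CPM in replicates 1 and 2 of its group. In Col-0, 35 of the genes averaged under 1 CPM over the 12 libraries. For AT1G06137 and AT3G24510, an uncharacterised and a defensin-like gene, no Col-0 library held more than 3 counts.

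**Figure D3:**
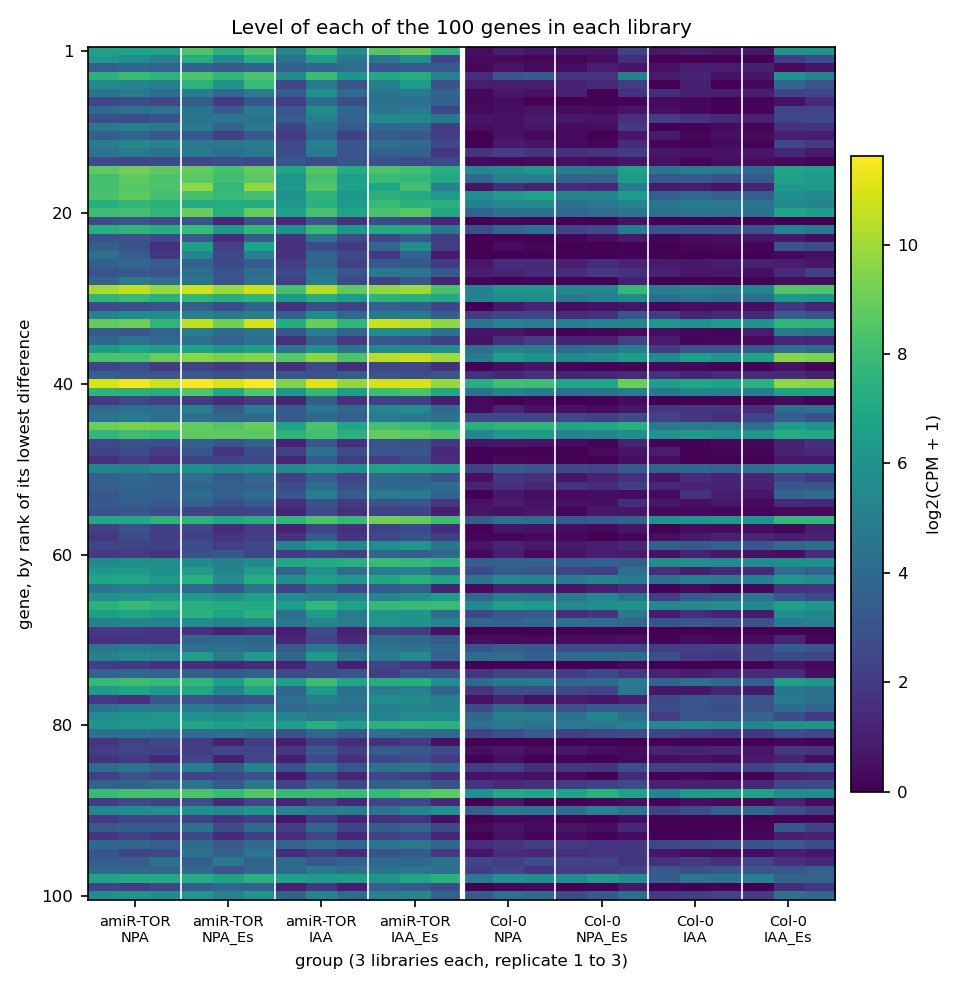
Level of each of the 100 genes (rows, by rank of the score) in each of the 24 libraries (columns, 12 of amiR-TOR left and 12 of Col-0 right, replicates 1 to 3 in each group) as log2(CPM + 1). The amiR-TOR side is brighter in all 4 conditions, and among the Col-0 columns the last 2, IAA_Es replicates 2 and 3, are the brightest, holding the highest Col-0 level of 43 and 22 genes.

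Where the rule was applied without 1 replicate number and the levels were read in the left-out libraries, which had no part in that choice, the differences kept their direction in most genes. With number 1 left out, 97 of the 100 genes then chosen were higher in amiR-TOR in all 4 left-out pairs, against 16.1% of all tested loci. With number 2 left out, 100 were, against 16.1%, and with number 3 left out, 63 were, against 14.8%. With number 3 left out the median difference in the left-out pair on IAA_Es was 0.35, against 2.27 on NPA, 2.30 on NPA_Es and 2.05 on IAA. The lists chosen in this way shared 68, 77 and 75 genes with the 100.

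The genes were grouped by annotated product and by described role, so genes with the same product can stand in different groups. By this grouping 13 belong to indole defence metabolism, 15 are other oxidases, transferases and lipid enzymes, 5 are chitinases and 5 class III peroxidases. Another 8 are extensins and other hydroxyproline-rich proteins, 6 other secreted or wall proteins and 8 other transcription regulators. There are 13 receptors, kinases, signalling peptides and NLR proteins, with a phosphatase counted among them. The last groups are 4 transporters, with a ferric reductase counted among them, and 23 genes that are uncharacterised or of other kinds. The 20 genes with the highest scores were, in order, AT1G26240, CYP82C2, AT1G72960, FOX1, AT1G26390, GSTU12, WRKY30, AT1G14550, AT2G43620, AT2G25297, AT5G11140, AT2G23270, MYB122, MAF5, IGMT2, CYP81F2, CYP71A12, IGMT4, AT1G55450 and CHI. Indole, wall, peroxidase, chitinase and regulator genes were all among these 20. AT1G72960, named after the root hair gene RHD3 for its GTP-binding protein product, had a score of 2.64, with 10.4, 14.0 and 12.3 CPM in amiR-TOR on NPA, against 0.185, 0.529 and 0.316 CPM in Col-0 on NPA. Of the 23 genes of other kinds, it was 1 of 10 with each amiR-TOR library above each Col-0 library. Over the 100 genes that count was 39, and over all tested loci the share was 0.939%.

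The summed level of the 13 indole genes lay between 911 and 5065 CPM in amiR-TOR and between 147 and 954 CPM in Col-0. CYP82C2, a P450 that hydroxylates indole carbonyl nitriles, had 72.9, 48.6 and 31.5 CPM in amiR-TOR on NPA, against 0.231, 0.227 and 0.105 CPM in Col-0 on NPA. On IAA_Es it had 22.5, 55.1 and 4.32 CPM in amiR-TOR, against 0, 3.21 and 5.22 CPM in Col-0. The groups did not overlap on NPA, and on IAA_Es replicate 3 of amiR-TOR lay below replicate 3 of Col-0.

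CYP71A12, which with its tandem copy CYP71A13 converts indole-3-acetaldoxime to indole-3-acetonitrile, had the largest difference of any chosen gene on NPA, 7.30. Its levels on NPA were 296, 375 and 329 CPM in amiR-TOR, against 0.600, 1.77 and 1.10 CPM in Col-0. On IAA_Es they were 118, 275 and 32.7 CPM in amiR-TOR, against 1.30, 73.7 and 85.2 CPM in Col-0, and the groups overlapped. FOX1, an oxidase of the same branch, had 43.6, 254 and 64.5 CPM in amiR-TOR on IAA, against 0.812, 1.22 and 0.496 CPM in Col-0 on IAA. PAD3, which makes camalexin in the last step, had 94.8, 28.5 and 77.2 CPM in amiR-TOR on NPA_Es, against 15.6, 16.2 and 16.2 CPM in Col-0 on NPA_Es. The groups did not overlap for PAD3 in any condition, whereas FOX1 overlapped on IAA_Es, with 127, 149 and 35.0 CPM in amiR-TOR, against 0.648, 57.0 and 36.6 CPM in Col-0. In amiR-TOR, replicate 2 was the highest of the IAA libraries for FOX1 and the lowest of the NPA_Es libraries for PAD3.

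Among the regulators of this branch, WRKY33, an activator of camalexin genes, had 175, 221 and 178 CPM in amiR-TOR on NPA, against 45.4, 93.3 and 73.9 CPM in Col-0 on NPA. On IAA_Es it had 213, 223 and 231 CPM in amiR-TOR, against 46.1, 98.1 and 69.1 CPM in Col-0. MYB122, a regulator of indole glucosinolate synthesis, had 27.7, 18.3 and 25.1 CPM in amiR-TOR on NPA_Es, against 2.25, 2.42 and 3.11 CPM in Col-0 on NPA_Es. In these conditions the groups did not overlap for either regulator. NAC042, also a regulator of camalexin synthesis, had a score of 1.44.

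Over all tested loci, edgeR called 10.7% higher in amiR-TOR on NPA, 17.6% on NPA_Es, 8.52% on IAA and 19.5% on IAA_Es, and 11.4%, 15.3%, 4.11% and 17.7% lower in the same order of conditions. Of a list of 17 genes of camalexin and indole defence, all tested, 9 were among the 100. Among its other 8 genes, edgeR called 4 higher in amiR-TOR on NPA, 3 on NPA_Es, 4 on IAA and 2 on IAA_Es, and 1 lower, MYB34 on NPA_Es (log2 fold change -0.94). MYB51, a regulator of indole glucosinolates, had 72.8 ± 19.1 CPM in amiR-TOR on NPA, against 11.2 ± 0.684 CPM in Col-0 on NPA (SD, n = 3 each). CYP79B3, which makes the aldoxime at the head of the branch, had log2 fold changes of 0.61, -0.59, 0.85 and -0.68 in the 4 conditions and was called in none.

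Of 15 genes of pattern-triggered immunity, PROPEP3 alone was among the 100. It encodes the precursor of a peptide that signals damage, and had 32.8, 49.9 and 47.3 CPM in amiR-TOR on NPA, against 2.77, 4.04 and 4.10 CPM in Col-0 on NPA. Of the other 14 genes, 4 were called higher in amiR-TOR on NPA, 4 on NPA_Es, 8 on IAA and 6 on IAA_Es, and 2 were called lower on IAA_Es. None of the genes on lists for the salicylic acid pathway, for jasmonate and ethylene defence, for iron uptake and coumarins, for the low oxygen response or for root triterpenes was among the 100. Of 13 tested salicylic acid genes, edgeR called 4 higher in amiR-TOR on NPA, 3 on NPA_Es, 3 on IAA and 4 on IAA_Es, and 2 lower on IAA_Es; the regulator SARD1 was higher in all 4 conditions, with log2 fold changes of 2.02, 2.77, 2.07 and 1.90. The 14 tested jasmonate and ethylene genes went both ways, with 2 higher and 2 lower on NPA, 3 and 2 on NPA_Es, 3 and 1 on IAA, and 3 and 4 on IAA_Es. LOX4, a lipoxygenase of jasmonate synthesis ranked 103, was higher in each, with log2 fold changes of 2.08, 2.06, 2.93 and 3.57.

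Of 15 tested genes of iron uptake and coumarins, 4 were called higher in amiR-TOR on NPA, 5 on NPA_Es, 3 on IAA and 3 on IAA_Es, and 1 was called lower on NPA_Es. Of 9 genes of the low oxygen response, 8 were called lower on IAA_Es, 2 on NPA_Es and 1 on IAA, and 1 was called higher on NPA. Of 8 root triterpene genes, 3 were called lower on NPA, 4 on NPA_Es, 1 on IAA and 1 on IAA_Es, and 1 was called higher on IAA.

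Glutathione transferases, berberine bridge enzymes and lipid enzymes formed a further group of 15 genes. GSTF7 had 1945, 2633 and 1669 CPM in amiR-TOR on NPA, against 152, 278 and 267 CPM in Col-0 on NPA. Its neighbour GSTF6, a transferase of camalexin synthesis counted with the indole genes, had 1111, 1469 and 880.5 CPM in amiR-TOR on NPA, against 32.6, 67.8 and 66.7 CPM in Col-0 on NPA. These groups did not overlap on NPA, whereas GSTF6 overlapped on IAA_Es, with 796, 962 and 305 CPM in amiR-TOR, against 39.8, 351 and 340 CPM in Col-0. The pair are close copies, so the split of reads between them is uncertain. GLIP1, a secreted lipase with a role in immunity, had 11.7, 23.4 and 16.9 CPM in amiR-TOR on NPA, against 0.138, 0.0378 and 0.158 CPM in Col-0 on NPA.

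Of 19 tested chitinase genes, enzymes that cut fungal wall polymers, 5 were among the 100. AT2G43590 had 1527, 549 and 1872 CPM in amiR-TOR on NPA_Es, against 30.4, 35.9 and 38.0 CPM in Col-0 on NPA_Es. Without estradiol it had 460, 533 and 197 CPM in amiR-TOR on NPA, against 21.1, 36.0 and 28.7 CPM in Col-0 on NPA. Neither condition showed overlap. For the 5 chitinases the median log2 fold change of estradiol over solvent on NPA was 1.77 within amiR-TOR and 0.22 within Col-0, a description, since the difference of these values is part of what the rule used.

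Of 53 tested peroxidase genes 5 were among the 100. AT1G14550, a class III peroxidase, had 7.42, 46.2 and 14.3 CPM in amiR-TOR on IAA, against 0.406, 0.182 and 0.0875 CPM in Col-0 on IAA. AT3G03670, of the same family, had 49.7, 42.2 and 18.6 CPM in amiR-TOR on IAA_Es, against 0.915, 23.9 and 21.6 CPM in Col-0 on IAA_Es. The groups were apart for AT1G14550 and overlapped for AT3G03670.

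Extensins and other hydroxyproline-rich wall proteins gave 8 of the 100, among them the gene with the highest score, AT1G26240. It had 95.7, 108 and 107 CPM in amiR-TOR on NPA, against 0.369, 0.906 and 0.579 CPM in Col-0 on NPA. On IAA_Es it had 362, 505 and 195 CPM in amiR-TOR, against 0.648, 67.5 and 64.6 CPM in Col-0. The groups did not overlap in either condition, and the high Col-0 values were again those of IAA_Es replicates 2 and 3. Of the 8 genes, 1 had a W-box match, AT1G26250.

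EXT6, EXT10, EXT12, AT3G54580, HRGP1 and FLA13 differed from AT1G26240 in that every Col-0 library held at least 1.54 CPM, the lowest value of FLA13. AT1G26250 shared this trait, with between 27.1 and 730 CPM over the Col-0 libraries. EXT10 had 57.7, 65.5 and 79.4 CPM in amiR-TOR on NPA, against 13.7, 29.5 and 24.5 CPM in Col-0 on NPA. On IAA_Es it had 36.4, 60.1 and 81.9 CPM in amiR-TOR, against 20.7, 7.61 and 5.17 CPM in Col-0, so that here replicates 2 and 3 of Col-0 were the lower ones. Root hair markers moved with these genes: of 6, edgeR called 1 higher in amiR-TOR on NPA, 4 on NPA_Es, 5 on IAA and 5 on IAA_Es. The summed level of the 6 markers lay between 112 and 119 CPM in amiR-TOR on NPA and between 58.9 and 76.2 CPM in Col-0 on NPA, and on IAA between 42.3 and 76.7 CPM in amiR-TOR and between 12.9 and 18.5 CPM in Col-0. None of the 6 was at 0 in all libraries, and the part of root hairs in the extensin values was not tested. Calls for markers of other cells follow. Over all tested loci, 10.7%, 17.6%, 8.52% and 19.5% were called higher on NPA, NPA_Es, IAA and IAA_Es. The shares called lower were 11.4%, 15.3%, 4.11% and 17.7% in the same order. On lists this short a single call cannot be set apart from these shares. All 6 endodermis markers were called higher in amiR-TOR on IAA_Es and 2 on IAA, with a summed level between 197 and 210 CPM in amiR-TOR on IAA_Es and between 103 and 117 CPM in Col-0 on IAA_Es. Of 5 phloem markers, 1 was called lower on NPA, 3 on NPA_Es, 1 on IAA and 2 on IAA_Es. Of 7 xylem markers 3 were called higher on IAA_Es, and 1 was called lower on NPA_Es and 2 on IAA. Of 5 root cap markers 2 were called higher and 1 lower on NPA, 1 higher on IAA and 2 higher on IAA_Es. Of the 8 photosynthetic markers 2 were called lower on NPA, 5 on NPA_Es and 1 on IAA_Es, and 1 was called higher on IAA. The part of these cell types in the values of the 100 genes was not tested. In pooled roots, more cells of a type and more RNA per cell cannot be told apart.

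The group of receptors, kinases, peptides and NLR proteins, with a phosphatase, held 13 genes. WAKL10, a wall-associated kinase-like protein, had 13.6, 21.5 and 14.7 CPM in amiR-TOR on NPA, against 0.415, 1.89 and 3.16 CPM in Col-0 on NPA. AT4G11170, an NLR protein of the TIR class, had 14.8, 17.7 and 16.7 CPM in amiR-TOR on NPA, against 0.277, 1.17 and 0.473 CPM in Col-0 on NPA. In both the groups stood apart on NPA, and on IAA_Es AT4G11170 overlapped, with 38.2, 49.7 and 16.2 CPM in amiR-TOR, against 1.79, 17.1 and 19.6 CPM in Col-0.

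Of the other 8 transcription regulators, 7 had each of 12 amiR-TOR libraries above each of 12 Col-0 libraries. Over the 100 genes that count was 39, and over all tested loci the share was 0.939%. The rule used these values, so the count is a description. WRKY30 had 9.82, 3.06 and 8.00 CPM in amiR-TOR on NPA_Es, against 0.0522, 0.0416 and 0.0741 CPM in Col-0 on NPA_Es. MAF5 and MAF4, neighbouring genes related to the flowering repressor FLC, stood at nearly the same level in every condition. MAF5 had 5.57, 4.66 and 5.18 CPM in amiR-TOR on NPA, against 0.277, 0.189 and 0.210 CPM in Col-0 on NPA. On IAA_Es it had 6.58, 5.11 and 5.15 CPM in amiR-TOR, against 0.343, 0.214 and 0.110 CPM in Col-0. MAF4 had between 5.79 and 10.2 CPM over the 12 amiR-TOR libraries and between 1.04 and 2.17 CPM over the 12 Col-0 libraries. The other copies of this tandem cluster were not among the 100: AGL31 (also called MAF2) had 110 ± 0.809 CPM in amiR-TOR on NPA, against 112 ± 5.77 CPM in Col-0 on NPA, and MAF3 had 25.8 ± 0.933 CPM in amiR-TOR, against 30.4 ± 2.54 CPM in Col-0 (SD, n = 3 each). AGL31 was called lower in amiR-TOR on NPA_Es (log2 fold change -0.42; adjusted p = 0.0202, edgeR). MAF3 was called lower on NPA_Es (-0.45; adjusted p = 0.00587, edgeR) and on IAA_Es (-0.34; adjusted p = 0.0299, edgeR).

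**Figure D4:**
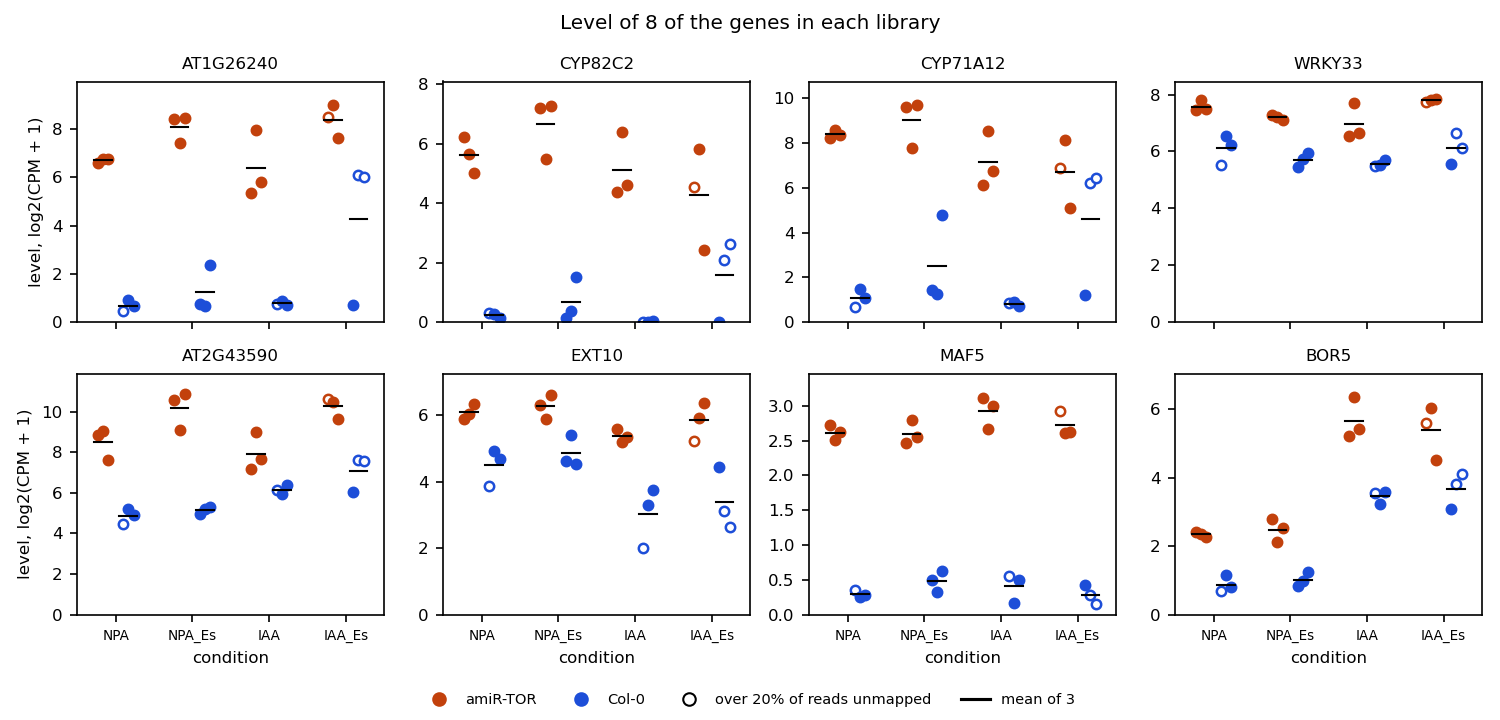
Level of 8 of the genes as log2(CPM + 1) (y axis) in each library by condition (x axis), amiR-TOR left and Col-0 right in each condition; bars are means of 3 and open symbols mark libraries with over 20% of reads unmapped. CYP71A12 overlaps between the genotypes on IAA_Es, MAF5 keeps between 4.49 and 7.66 CPM in amiR-TOR and between 0.110 and 0.543 CPM in Col-0, and BOR5 is higher on IAA in both genotypes.

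Neighbouring genes were often chosen together. Of the 100, 32 lay within 5 loci of another chosen gene, in 13 runs, against 16 of the genes ranked 101 to 200 and 5 of the 100 genes lowest in amiR-TOR in all conditions. The longest runs were 4 berberine bridge enzyme genes on chromosome 1 (FOX1, AT1G26390, AT1G26410 and AT1G26420) and 4 chitinase genes on chromosome 2 (CHI, AT2G43580, AT2G43590 and AT2G43620). The other runs were GSTF7 with GSTF6, PER4 with AT1G14550, the 3 IGMT genes, AT1G26240 with AT1G26250, AT1G51913 with AT1G51915 and AT1G51920, AT2G18680 with AT2G18690, GLR2.8 with GLR2.7, CYP71A12 with CYP71A13, AT3G54580 with HRGP1, AT4G28420 with AT4G28460, and MAF4 with MAF5. A run was not always complete: AT1G26400, inside the berberine run, had at most 1.42 CPM in any library, and IGMT1, beside IGMT2, IGMT3 and IGMT4, had 855 ± 114 CPM in amiR-TOR on NPA, against 703 ± 172 CPM in Col-0 on NPA (SD, n = 3 each; adjusted p = 0.644, edgeR). The IGMT enzymes methylate indole glucosinolates. IGMT3 had 506, 613 and 560 CPM in amiR-TOR on NPA, against 156, 191 and 191 CPM in Col-0 on NPA. Reads that tandem copies share could be split or lost in counting. Of the 100 genes 33 stood on chromosome 1, which held 26.5% of the tested genes, and 23 on chromosome 2, which held 15.2%.

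The responses of the 100 genes to auxin and estradiol were tested on the mean of both genotypes, which the rule did not use as such. The test was edgeR's quasi-likelihood test, with p-values adjusted over all 21290 tested loci. It read the same 24 libraries as the rule. Where mainly 1 genotype changed, the averaged change is not separate from the differences that the rule used. AT2G43580, for example, changed with estradiol on NPA by 2.56 within amiR-TOR and by 0.21 within Col-0. For IAA over NPA without estradiol, 12 of the genes rose, against 34.9% of all tested loci, and 28 fell, against 34.3%. Both shares stood below those of all tested loci. Without the 5 libraries of high unmapped share 11 rose and 31 fell. Their median log2 fold change was -0.65, against -0.02 over all tested loci. Of the 13 indole genes, 7 fell: IGMT3 fell by 2.24 ± 0.321 (SE; adjusted p = 5.82e-06, edgeR), IGMT4 by 2.14 ± 0.392 (adjusted p = 0.000105, edgeR), and NAC042, MYB122, CYP81F2, IGMT2 and WRKY33 by 1.75, 1.57, 1.41, 1.14 and 0.54. WAKL10 fell by 2.08 ± 0.594 (adjusted p = 0.00449, edgeR). The largest called falls were those of AT1G51915, by 2.30 ± 0.856 (adjusted p = 0.0223, edgeR), and AT4G28460, by 2.30 ± 0.816 (adjusted p = 0.0182, edgeR). With 1 library left out at a time, the first was not called in 1 of 24 fits and AT4G28460 in 2. In Col-0 on IAA these genes had only 1, 2 and 0 reads and 1, 4 and 2 reads. Their log2 fold changes were -3.23 and -2.74 within Col-0, against -1.38 and -1.86 within amiR-TOR. The size of the averaged falls is therefore uncertain.

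BOR5, a member of the boron transporter family, rose most of the 100 on IAA without estradiol, by 3.64 ± 0.316 (log2 fold change ± SE; adjusted p = 4.52e-09, edgeR). It had 36.4, 80.7 and 42.0 CPM in amiR-TOR on IAA, against 4.33, 4.15 and 3.80 CPM in amiR-TOR on NPA. In Col-0 it had 10.7, 8.45 and 11.1 CPM on IAA, against 0.600, 1.21 and 0.736 CPM on NPA. The auxin groups stood above the NPA groups in both genotypes. AT5G37450, a leucine-rich repeat kinase, rose by 2.83 ± 0.372 (adjusted p = 1.64e-06, edgeR), LACS3, a long-chain acyl-CoA synthetase, by 1.86 ± 0.0866 (adjusted p = 7.32e-15, edgeR), the chitinase AT2G43620 by 1.68 ± 0.415 (adjusted p = 0.00147, edgeR) and the germin-like protein GLP9 by 1.51 ± 0.272 (adjusted p = 7.57e-05, edgeR). LACS3 had 125, 129 and 161 CPM in amiR-TOR on IAA, against 45.5, 52.0 and 50.6 CPM in amiR-TOR on NPA, and 52.3, 50.7 and 46.2 CPM in Col-0 on IAA, against 10.6, 11.1 and 10.9 CPM in Col-0 on NPA.

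For IAA over NPA with estradiol, 24 of the genes rose, against 32.1% of all tested loci, and 11 fell, against 30.9%. BOR5 rose by 3.42 ± 0.300 (adjusted p = 8.12e-09, edgeR), AT5G37450 by 3.56 ± 0.348 (adjusted p = 4.40e-08, edgeR), AT3G03670 by 3.66 ± 0.655 (adjusted p = 0.000101, edgeR), AT5G25260, which encodes a membrane-associated protein, by 2.86 ± 0.634 (adjusted p = 0.000747, edgeR) and GLP9 by 2.74 ± 0.282 (adjusted p = 1.06e-07, edgeR). The peroxidase AT5G06730 fell by 1.72 ± 0.303 (adjusted p = 4.09e-05, edgeR), MYB122 by 1.49 ± 0.407 (adjusted p = 0.00368, edgeR), PAD3 by 1.45 ± 0.426 (adjusted p = 0.00664, edgeR), WAKL10 by 1.23 ± 0.500 (adjusted p = 0.0393, edgeR) and AT1G73860, a nucleoside triphosphate hydrolase, by 1.10 ± 0.238 (adjusted p = 0.000357, edgeR). WAKL10 was not called without a filter, with the replicate block or with DESeq2, nor in 6 of the 24 fits that left out 1 library. Without the 5 libraries of high unmapped share, only replicate 1 of Col-0 on IAA_Es remained. The log2 fold change was then -1.5 for PAD3, 1.49 for AT3G03670 and 0.81 for AT5G25260. Of the 8 wall proteins, EXT6, EXT10, EXT12 and HRGP1 fell on IAA both with and without estradiol, each by at least 0.83. AT1G26240 and AT1G26250 instead rose on IAA with estradiol, by 2.40 ± 0.701 (adjusted p = 0.00672, edgeR) and 1.99 ± 0.400 (adjusted p = 0.000316, edgeR). By description, the changes were 0.32 and 0.89 within amiR-TOR and 4.48 and 3.08 within Col-0. AT1G26240 had 0.648, 67.5 and 64.6 CPM in Col-0 on IAA_Es, and AT1G26250 had 110, 730 and 638 CPM. Their averaged rise thus rested largely on replicates 2 and 3 of that group. AT3G54580 and FLA13 were called neither with nor without estradiol.

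For estradiol over solvent on NPA, 6 of the genes rose, against 23.7% of all tested loci, and 1 fell, against 17.9%. The 6 were 4 of the 5 chitinases, AT2G43580 by 1.39 ± 0.386 (adjusted p = 0.00630, edgeR), AT2G43620 by 1.38 ± 0.420 (adjusted p = 0.0132, edgeR), AT2G43590 by 0.99 ± 0.380 (adjusted p = 0.0447, edgeR) and AT4G01700 by 0.54, together with the peroxidase AT5G06730 by 1.30 ± 0.284 (adjusted p = 0.000982, edgeR) and the glutamate receptor-like gene GLR2.7 by 0.89 ± 0.344 (adjusted p = 0.0429, edgeR). DLAH, a lipase-like hydrolase, fell by 0.55 ± 0.215 (adjusted p = 0.0447, edgeR). AT2G43580 had 13.0, 13.4 and 13.2 CPM in amiR-TOR on NPA_Es, against at most 2.42 CPM in amiR-TOR on NPA. In Col-0 it had 0.313, 0.291 and 0.395 CPM on NPA_Es, against 0.369, 0.264 and 0.210 CPM on NPA. The estradiol groups stood apart in amiR-TOR and overlapped in Col-0. With 1 library left out at a time, DLAH was not called in 16 of 24 fits, AT2G43590 in 15, GLR2.7 in 8 and AT2G43620 in 1. Without the 5 libraries of high unmapped share 5 of the genes rose and 4 fell. The count of genes that rose was 10 without replicate 1 of Col-0 on IAA_Es and 3 without replicate 3 of Col-0 on NPA_Es.

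For estradiol over solvent on IAA, 25 of the genes rose, against 4.73% of all tested loci, and 0 fell, against 5.19%. In Col-0 the summed level of the 100 genes was 1153, 4268 and 3822 CPM on IAA_Es, against 849, 1098 and 1021 CPM on IAA. The Col-0 rise thus lay in replicates 2 and 3 of IAA_Es, both of high unmapped share. In amiR-TOR the sums were 11887, 12767 and 7141 CPM on IAA_Es, against 4132, 11364 and 4918 CPM on IAA. At an unadjusted p under 0.05 the counts were 55 and 0, and with DESeq2 45 and 0. The shares of all tested loci at these settings are not given, so the counts cannot be set against them. AT3G03670 rose by 3.74 ± 0.671 (adjusted p = 0.00233, edgeR) and AT1G26240 by 3.79 ± 0.811 (adjusted p = 0.00766, edgeR). AT1G08763 rose by 3.98 ± 0.803 (adjusted p = 0.00439, edgeR), the cupin gene AT5G38910 by 3.82 ± 1.16 (adjusted p = 0.0463, edgeR) and the receptor kinase gene RK3 by 3.33 ± 0.868 (adjusted p = 0.0211, edgeR). In Col-0 on IAA, AT1G08763 had 0, 0 and 2 reads, AT5G38910 had 0, 2 and 7, and RK3 had 0, 1 and 2. In the same order, their changes were 5.35, 4.84 and 6.30 within Col-0, and 2.61, 2.80 and 0.36 within amiR-TOR. Without the 5 libraries of high unmapped share, Col-0 on IAA_Es kept only replicate 1. The log2 fold change was then 1.75 for AT3G03670, 0.74 for AT1G26240, -0.33 for AT1G08763, 1.45 for AT5G38910 and 0.80 for RK3. AT5G38910 was not called in 17 of the 24 fits that left out 1 library, and RK3 in 3. With only replicate 1 of Col-0 on IAA_Es or only replicate 2 of amiR-TOR on IAA left out 50 rose. With only replicate 2 or 3 of Col-0 on IAA_Es left out 14 and 16 did, and with only replicate 1 or 3 of amiR-TOR on IAA or replicate 1 or 3 of Col-0 on IAA left out 15 did. The median log2 fold change of the 100 genes for estradiol over solvent on IAA was 0.45 within amiR-TOR and 1.35 within Col-0. This is a description, since the difference of these values is part of what the rule used.

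The response to auxin differed with estradiol for 12 of the genes, all more positive with estradiol, against 7.36% of all tested loci, and 0 went the other way, against 13.5% (1 at an unadjusted p under 0.05, and 0 with DESeq2). The count called was 21 without replicate 1 of Col-0 on IAA_Es and 19 without replicate 2 of amiR-TOR on IAA. Leaving out the 5 libraries of high unmapped share kept only replicate 1 of Col-0 on IAA_Es. The interaction was then 1.88 for AT3G03670, 0.65 for AT1G26250, 0.54 for GSTU10 and 0.79 for DLAH. With all libraries it was 3.91, 1.65, 1.32 and 1.24 in the same order. ZAT11, a zinc finger regulator, had the smallest adjusted p, with an interaction of 1.49 ± 0.287 (log2 ± SE; adjusted p = 0.000987, edgeR). It had 29.7, 23.1 and 19.6 CPM in amiR-TOR on IAA_Es, against 16.6, 15.4 and 15.3 CPM in amiR-TOR on NPA_Es. In Col-0 it had 4.12, 10.3 and 6.32 CPM on IAA_Es, against 4.33, 3.62 and 5.21 CPM on NPA_Es. The auxin groups stood above the NPA groups in amiR-TOR and overlapped in Col-0.

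**Figure D5:**
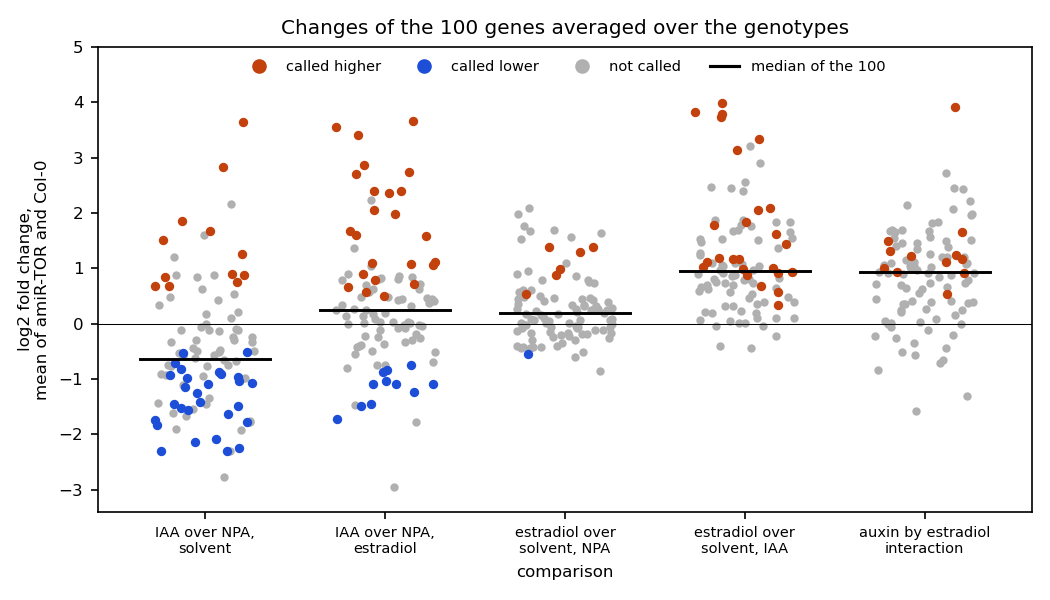
Log2 fold change of each of the 100 genes in 5 comparisons (x axis), each the mean of the changes in amiR-TOR and in Col-0 (y axis); lines are medians and colours mark genes called by edgeR at an adjusted p under 0.05. The genes called higher and lower number 12 and 28, 24 and 11, 6 and 1, 25 and 0, and 12 and 0, from left to right.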

How the data were processed

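RNA of 24 root pools was sequenced. The deposited tables hold raw read counts per locus, made with STAR 2.5.2b on TAIR10 per the submitters' processing notes, which also name DESeq2; the table columns give counts without and with regard to strand. The 4 summary lines of each table were left out, and the strand column that held 95.4% to 96.3% of stranded reads was used, so reads that map to several places are not counted. Text in the labels on other plates and harvest times was not used. Names, products and gene order came from the RefSeq annotation of TAIR10.1, which matched 32548 of 32833 loci. From the deposited counts, CPM was computed on the sum of gene loci, and log2(CPM + 1) chose the genes.

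Tests used edgeR 4.0.16 in R 4.3.3: filterByExpr on the 8 groups, TMM factors (0.957 to 1.04), 1 robust quasi-likelihood fit of all 24 libraries with a mean per group, and Benjamini-Hochberg adjustment over 21290 loci in each of 5 comparisons averaged over genotypes; "called" means an adjusted p under 0.05. DESeq2 1.42.0 was run as an alternative. Tables and plots were made with Python 3.11.15, numpy 2.4.6, pandas 2.3.3 and matplotlib 3.10.9. Counts were simulated for IAA against NPA without estradiol (21290 loci), with the same spread between replicates for every locus. Of 100 changes of log2 size 1, 96 were recovered, and of 100 of size 2, 97, with 9 false calls among other loci. The simulation therefore does not show recovery or false calls for genes that spread more, such as CYP71A12 in amiR-TOR on IAA. Replicates differed by more than counting noise (chi-square per degree of freedom 4.81 to 50.2). Counting error alone is small at this depth for all but the lowest genes.

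The genes named are the 20 highest scores, those on the lists, the 5 largest called changes each way per comparison averaging at least 1 CPM, 3 on each side of the limit, and those within 5 loci of another. GLIP1, AT4G11170, NAC042, EXT6, EXT10, EXT12, FLA13, AT1G06137, AT3G24510, AT4G01700, FRO4, PHT3;2, AGL31, MAF3 and AT1G26400 were named after their values were seen. The 100 genes, the lists and the groups by product and role were chosen with earlier results of these data known. No pattern in them is therefore independent support. Alternatives were RLE scaling, DESeq2, no filter, unstranded counts, a replicate block, a covariate or omission for libraries with over 20% of reads unmapped, only the groups compared, and leaving out each library.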

Additional observations from a re-analysis of the deposited data

Results flagged for a closer look

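The response to auxin differed between estradiol and solvent for 12 of the 100 genes (edgeR, adjusted p under 0.05), by a test of the difference itself averaged over both genotypes. The named genes were the peroxidase AT3G03670, with an interaction of 3.91 ± 1.19 (log2 ± SE; adjusted p = 0.0274, edgeR), the extensin gene AT1G26250 with 1.65 ± 0.551 (adjusted p = 0.0417, edgeR), the zinc finger gene ZAT11 with 1.49 ± 0.287 (adjusted p = 0.000987, edgeR), the glutathione transferase gene GSTU10 with 1.32 ± 0.386 (adjusted p = 0.0219, edgeR) and the hydrolase gene DLAH with 1.24 ± 0.312 (adjusted p = 0.00771, edgeR). For AT3G03670, the log2 fold change of IAA over NPA was 0.78 with estradiol and 0.76 with solvent within amiR-TOR, and 6.55 with estradiol and -1.25 with solvent within Col-0. For ZAT11 it was 0.62 and -0.95 within amiR-TOR, and 0.70 and -0.70 within Col-0, in the same order. Replicates 2 and 3 of Col-0 on IAA_Es, with 35.2% and 31.7% of reads unmapped, hold the high Col-0 values of AT3G03670, 23.9 and 21.6 CPM, against 0.915 CPM in replicate 1. With a covariate for the 5 libraries of high unmapped share, the interaction was 2.74 for AT3G03670 (adjusted p = 0.088, edgeR), 1.65 for AT1G26250 (adjusted p = 0.0794, edgeR) and 1.11 for GSTU10 (adjusted p = 0.074, edgeR), and none of these was called. Leaving those libraries out kept only replicate 1 of Col-0 on IAA_Es. The interaction was then 1.88 for AT3G03670, 0.65 for AT1G26250, 0.54 for GSTU10, 0.79 for DLAH and 1.21 for ZAT11. With 1 library left out at a time, AT1G26250 was not called in 18 of 24 fits and AT3G03670 in 3.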

How the results depend on the processing

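The count of genes called kept within 1.5 times of the reported one except as follows. Without the 5 libraries of high unmapped share (chosen after seeing the data), 10 genes rose on IAA with estradiol, 4 fell with estradiol on NPA, 1 rose with estradiol on IAA and 3 were called in the interaction. For estradiol on NPA, the count of genes that fell was 2 with RLE scaling and with the replicate block. It was 0 without a filter, 3 with unstranded counts, 0 with the covariate and 3 with DESeq2. With only the groups compared 6 fell and 11 rose. For estradiol on IAA, 11 rose with only the groups compared and 45 with DESeq2. In the interaction, 7 were called with the covariate and 19 with DESeq2. AT1G08763 reversed for estradiol on IAA, at -0.33, without the libraries of high unmapped share. Leaving out 1 library at a time gave, of genes that rose and fell, 9 to 14 and 21 to 37 for IAA with solvent, 21 to 36 and 9 to 13 for IAA with estradiol, 3 to 10 and 0 to 3 for estradiol on NPA, 14 to 50 and 0 to 1 for estradiol on IAA, and 8 to 21 and 0 to 2 in the interaction. The cause of these shifts was not tested. Shares of all tested loci are given only for the main fit, not for these alternatives.

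Equal replicate numbers did not pair the libraries: over 84 pairs of same-numbered libraries the correlation of deviations from the group means ran from -0.38 to 0.32 (median 0.0067, 18 over 0.1), and 10 of 24 libraries were closest to their own number. With the replicate block, 12 genes rose and 29 fell on IAA with solvent, 24 and 10 on IAA with estradiol, 6 and 2 with estradiol on NPA, 27 and 0 with estradiol on IAA, and 14 and 0 in the interaction. Of the 100 genes, 86 were chosen again with a pseudocount of 0.5 and 62 with 5, 99 with TMM-scaled sizes, 96 from unstranded counts, 78 from medians, 67 without the libraries of high unmapped share, 100 from filtered loci and 68 to 77 without 1 replicate number. Low counts limit genes such as AT1G06137, for which the pseudocount sets the difference.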

Other observations

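The transporter group, which takes in a ferric reductase, held 4 of the 100 genes. FRO4, a ferric reductase, had 165, 52.3 and 152 CPM in amiR-TOR on NPA_Es, against 25.7, 38.1 and 25.8 CPM in Col-0 on NPA_Es. PHT3;2, a phosphate transporter of mitochondria, had 28.3, 10.4 and 34.0 CPM in amiR-TOR on NPA_Es, against 2.61, 2.33 and 6.20 CPM in Col-0 on NPA_Es. Replicate 2 of amiR-TOR was the lowest of its group for both, and the groups did not overlap.

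AT5G38910, a gene of the cupin superfamily, differed between replicates of the line: it had 96.5, 3.97 and 105 CPM in amiR-TOR on NPA_Es, against 0.0522, 0 and 0.0988 CPM in Col-0 on NPA_Es. AT1G08763, the only gene of the 100 that does not code for a protein, had between 9.18 and 13.3 CPM in amiR-TOR on NPA_Es, against at most 0.691 CPM in Col-0 on NPA_Es. On NPA without estradiol it had 4.00, 3.07 and 4.41 CPM in amiR-TOR, against 0, 0.113 and 0.210 CPM in Col-0. Its groups did not overlap in these conditions.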
